A study of Sus scrofa with 4 samples.

Results

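The laminin chain genes LAMA2, LAMA4, LAMA5, LAMB1, LAMB2 and LAMC1 and the genes of 4 proteins that link the basement membrane, NID1, NID2, HSPG2 and AGRN, were followed while pig subcutaneous preadipocytes became adipocytes. These 10 genes are all protein-coding genes of that name among the 16192 mRNAs listed in the deposited tables, matched by gene symbol. The cells came from the subcutaneous fat of male Chinese Erhualian piglets aged 5 days. RNA was taken at confluence before induction (D0), after 2 days in a hormone cocktail of dexamethasone, IBMX and insulin (D2), after a further period in insulin alone (D4), and after return to growth medium (D8), so that hormone exposure and day in culture changed together. For each stage, RNA of 3 piglets was pooled into 1 strand-specific, rRNA-depleted library. No stage had a replicate among the 4 libraries. A difference between stages therefore cannot be told apart from one between libraries, and no test was made. Expression was deposited as FPKM, the fragments on a gene scaled by its length and by all fragments counted in the library.

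Basement membranes are thin extracellular sheets that surround each adipocyte in fat. Laminins, their first layer, are secreted as trimers of an alpha, a beta and a gamma chain, and the alpha chain carries the main binding sites for integrins and dystroglycan at the cell surface. Nidogens bind both the laminin gamma chain and collagen IV, the second network of the sheet. Perlecan (HSPG2) and agrin (AGRN) are large proteoglycans with heparan sulfate chains that also bind laminin.

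The library totals behind FPKM, computed from the values themselves, were between 54128151 and 75387428 fragments. Reads of a gene given below stand for these fragments. The 10 genes together took 0.163% of the reads (D0), 0.435% (D2), 0.431% (D4) and 0.185% (D8), or 100360 to 320838 reads per library. Intervals in brackets below are 95% intervals computed from read numbers and cover counting error only. A single abundant gene for signal recognition particle RNA held between 12.4% and 17.1% of the reads, and FPKM of every other gene moves with that share. The label of the cells was checked against marker genes. Genes were taken as reliably expressed where FPKM reached 1 in 3 or more libraries. All 7 preadipocyte and fibroblast markers met this condition, and 5 of 7 adipocyte markers did, with a summed FPKM of 106 (D0), 388 (D2), 1553 (D4) and 2029 (D8). Among endothelial markers, 1 of 7 was reliably expressed (PECAM1, FPKM 1.14 to 2.56). CDH5 and VWF were listed at 0 in 3 of the 4 libraries each. Of 6 macrophage and leukocyte markers, 2 were reliably expressed, CD14 (FPKM 3.14, 5.64, 7.54 and 2.78 from D0 to D8) and C1QA (1.05, 1.28, 0.582 and 1.37). Of 5 skeletal muscle markers, 2 were listed and 1 was reliably expressed. The summed FPKM of the 2 was 436 (D0), 37.7 (D2), 4.05 (D4) and 35.7 (D8). The other listed marker was below 1 in each library, so this sum rested on 1 gene. None of 3 Schwann cell markers listed was reliably expressed. In bulk RNA of this kind, fewer cells of a type and less RNA per cell cannot be told apart.

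Summed over the 10 genes, FPKM was 243 (D0), 651 (D2), 635 (D4) and 272 (D8), so that the D2 and D4 libraries were high and the D0 and D8 libraries low. Most of that sum was LAMB1, LAMA4, NID1 and LAMC1. The genes did not share a single course: LAMB1 and NID1 were high at D2 and D4, LAMA2 was highest at D4, and LAMB2 was lowest at D2 and D4.

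**Figure D1:**
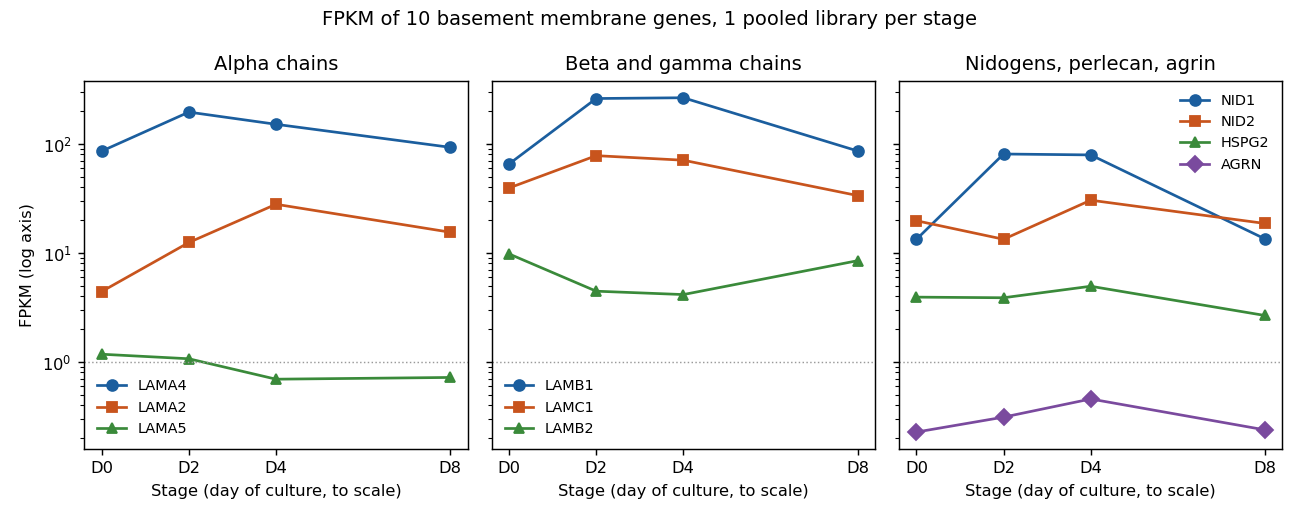
FPKM on a log axis against day of culture for the alpha chains (left), the beta and gamma chains (middle) and the nidogens and proteoglycans (right), with 1 point per pooled library and a dotted line at FPKM 1. LAMB1 and NID1 stand on a plateau at D2 and D4, LAMA2 peaks at D4, LAMB2 dips, and AGRN stays below 1 in each of the 4 libraries.

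Among the alpha chains, LAMA4, the chain of laminins in blood vessels and fat, was the most abundant, with FPKM of 85.9 (D0), 196 (D2), 151 (D4) and 93.0 (D8). LAMA4 was highest at D2, and its D8 level was close to that of D0. In the D0 library it stood at percentile 92.5 of the 9191 reliably expressed mRNAs, and in the D2 library at 97.0. Against D0, its FPKM was 2.28-fold higher at D2 (log2 ratio 1.19, 1.17 to 1.21) and 1.76-fold higher at D4 (log2 ratio 0.82, 0.80 to 0.84). At D8 its log2 ratio to D0 was 0.12 (0.09 to 0.14). LAMA4 (Sscrofa11.1, chr1:78071990-78224564, minus strand) and LAMA2 (chr1:33765412-34359741, minus strand) lie on the same chromosome.

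LAMA2, the chain of muscle and nerve laminins that is mutated in a congenital muscular dystrophy, had FPKM of 4.42 (D0), 12.5 (D2), 28.0 (D4) and 15.5 (D8). It was lowest at D0 and highest at D4, and it alone of the 10 genes was more than 2-fold above its D0 level at D8. LAMA2 was 2.81-fold higher at D2 than at D0, 6.31-fold higher at D4 than at D0 (log2 ratio 2.66, 2.61 to 2.71) and 3.50-fold higher at D8 than at D0 (log2 ratio 1.81, 1.75 to 1.86). Of the reliably expressed mRNAs, 1.66% had a higher ratio of D4 to D0 and 1.82% a higher ratio of D8 to D0. From D4 to D8 its log2 ratio was -0.85 (-0.89 to -0.82). Its rank among reliably expressed mRNAs went from percentile 33.2 at D0 to 79.8 at D4 and 69.4 at D8. The summed FPKM of the 7 adipocyte markers was also above its D0 value in the other 3 libraries. That sum was highest at D8 through FABP4 (853 at D4 and 1557 at D8) and CIDEC (5.01 and 54.6), whereas 4 of the 5 reliably expressed adipocyte markers were lower at D8 than at D4, with a median log2 ratio over the 5 of -0.81. The part of adipocyte content in the LAMA2 values was not tested.

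LAMA5, an alpha chain of mature epithelial and vascular basement membranes, had FPKM of 1.18 (D0), 1.07 (D2), 0.694 (D4) and 0.720 (D8). It was above 1 in the D0 and D2 libraries only, so it was not reliably expressed and was not called in any comparison. Its log2 ratio to D0 was -0.75 (-0.91 to -0.61) at D4, from 1017 and 592 reads. LAMA5 lies at chr17:61698370-61747795 on the minus strand.

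Of the beta chains, LAMB1, the beta chain of early and widespread laminins, had FPKM of 65.5 (D0), 261 (D2), 265 (D4) and 86.1 (D8). The D2 and D4 libraries differed by 0.02 on the log2 scale, and the D0 and D8 libraries lay far below both. LAMB1 was 3.99-fold higher at D2 than at D0 (log2 ratio 1.99, 1.98 to 2.01), 4.05-fold higher at D4 than at D0 and 3.08-fold lower at D8 than at D4 (log2 ratio -1.62, -1.64 to -1.60). At D8 it was still 1.32-fold higher than at D0. At D2 and D4 it was the most abundant of the 10 genes, at percentile 97.7 in both libraries, whereas at D0 and D8 LAMA4 was above it. LAMB1 lies at chr9:107670120-107747242 on the minus strand.

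LAMB2, a beta chain known from neuromuscular junctions and kidney glomeruli, had FPKM of 9.79 (D0), 4.46 (D2), 4.15 (D4) and 8.49 (D8). It was low where LAMB1 was high. LAMB2 was 2.19-fold lower at D2 than at D0 (log2 ratio -1.13, -1.22 to -1.05), and 2.04-fold higher at D8 than at D4 (log2 ratio 1.03, 0.94 to 1.12). At D8 its log2 ratio to D0 was -0.21 (-0.28 to -0.13). With 1 in place of 0.01 added to FPKM, neither of these 2-fold differences of LAMB2 reached 2. Its read numbers, 1386 to 4176 per library, were the lowest of the 8 reliably expressed genes in the D2 and D4 libraries. LAMB2 lies at chr13:31738282-31750623 on the minus strand, 146 bases from USP19 on the same strand.

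The gamma chain LAMC1, shared by most laminins, had FPKM of 39.4 (D0), 78.0 (D2), 70.9 (D4) and 33.6 (D8). It was high in the same libraries as LAMB1, over a smaller range, and its D8 level was the lowest of its 4 values. LAMC1 was 1.98-fold higher at D2 than at D0 (log2 ratio 0.98, 0.96 to 1.01), just under the 2-fold limit, and 2.11-fold lower at D8 than at D4 (log2 ratio -1.08, -1.11 to -1.05). Its log2 ratio of D8 to D0 was -0.23 (-0.26 to -0.20). Under each of 4 other scalings of the libraries the D2 to D0 ratio of LAMC1 reached 2, and under 2 of them (median-ratio and 75th percentile) the D8 to D4 difference did not. LAMC1 lies at chr9:124283668-124405967 on the plus strand.

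Of the nidogens, NID1 had FPKM of 13.3 (D0), 80.8 (D2), 79.3 (D4) and 13.4 (D8). The D2 and D4 libraries were about equal, and the D0 and D8 libraries were equal within counting error (log2 ratio 0.01, -0.04 to 0.07). NID1 was 6.07-fold higher at D2 than at D0 (log2 ratio 2.60, 2.56 to 2.64), the largest ratio of the 10 genes in that comparison and place 96 from the top among 9191 mRNAs. It was 5.89-fold lower at D8 than at D4 (log2 ratio -2.56, -2.61 to -2.52), and 0.196% of the mRNAs had a lower ratio. NID1 lies at chr14:55239327-55346948 on the plus strand.

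NID2, the second nidogen, had FPKM of 19.7 (D0), 13.3 (D2), 30.5 (D4) and 18.6 (D8). It was lowest at D2, where NID1 was highest, and highest at D4. NID2 was 2.28-fold higher at D4 than at D2 (log2 ratio 1.19, 1.14 to 1.24), and its log2 ratio of D2 to D0 was -0.56 (-0.62 to -0.51). At D8 its log2 ratio to D0 was -0.08 (-0.13 to -0.03). NID2 was thus the more abundant nidogen at D0 and D8 (1.48 and 1.39 times NID1), and NID1 was the more abundant at D2 and D4 (6.06 and 2.60 times NID2). NID2 lies at chr1:181699098-181773084 on the minus strand.

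HSPG2, which encodes perlecan, had FPKM of 3.93 (D0), 3.88 (D2), 4.95 (D4) and 2.67 (D8). It varied least among the reliably expressed genes, with a highest value 1.85 times the lowest, and did not reach 2-fold in any comparison. Its largest log2 ratio was -0.89 (-0.96 to -0.82), of D8 to D4. AGRN, which encodes agrin, had FPKM of 0.227 (D0), 0.312 (D2), 0.457 (D4) and 0.238 (D8), from 97 to 256 reads, and was below 1 in each library. It was therefore not reliably expressed, and its log2 ratio of D4 to D0 of 0.98 (0.70 to 1.33) was not called. The HSPG2 transcript was the longest of the 10 (14863 bases), so that its 2145 to 5466 reads correspond to a low FPKM. HSPG2 lies at chr6:79849691-79958283 on the minus strand and AGRN at chr6:63366017-63398311 on the plus strand.

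A gene was called where its 2 libraries differed by a ratio of at least 2 on log2(FPKM + 0.01) among the 9191 reliably expressed mRNAs, without a test. LAMA5 and AGRN were left out by this condition. Between D2 and D0, which asks what the hormone cocktail period changed, 5 of the other 8 genes were called, beside 16.8% of all reliably expressed mRNAs. LAMA2, LAMA4, LAMB1 and NID1 were higher, beside 6.67% of mRNAs, and LAMB2 was lower, beside 10.1%. The median log2 ratio of the 8 genes was 1.09, and that of all reliably expressed mRNAs was -0.03. With LAMA5 and AGRN included, the median was 0.71.

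Between D4 and D2, 2 of the 8 were called, beside 5.08% of mRNAs. These were LAMA2 and NID2, both higher, beside 4.24% of mRNAs that were higher and 0.838% that were lower. The other 6 had log2 ratios between -0.37 (LAMA4) and 0.35 (HSPG2). Between D8 and D4, 4 of the 8 were called, beside 14.5% of mRNAs. LAMB1, LAMC1 and NID1 were lower, beside 10.1% of mRNAs, and LAMB2 was higher, beside 4.43%. In this comparison 7 of the 8 genes had a ratio below 1, and their median log2 ratio was -0.87 against -0.21 for all reliably expressed mRNAs.

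Compared with D0, 4 of the 8 were called at D4, beside 19.2% of mRNAs. LAMA2, LAMB1 and NID1 were higher (10.4% of mRNAs were), and LAMB2 was lower (8.81% of mRNAs were). At D8, 1 of the 8 was called against D0, LAMA2, which was higher, beside 7.28% of mRNAs called and 3.60% called higher. The median log2 ratio of the 8 genes was 0.83 at D4 and -0.03 at D8, and for all reliably expressed mRNAs 0.06 and -0.18. These comparisons share the D0 library with each other and the D4 library with those above, so they do not repeat one another independently. After the values had been seen, the genes both called higher between D2 and D0 and called lower between D8 and D4 were counted. LAMB1 and NID1 met this condition, 2 of the 8, beside 298 of the 9191 reliably expressed mRNAs (3.24%).

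**Figure D2:**
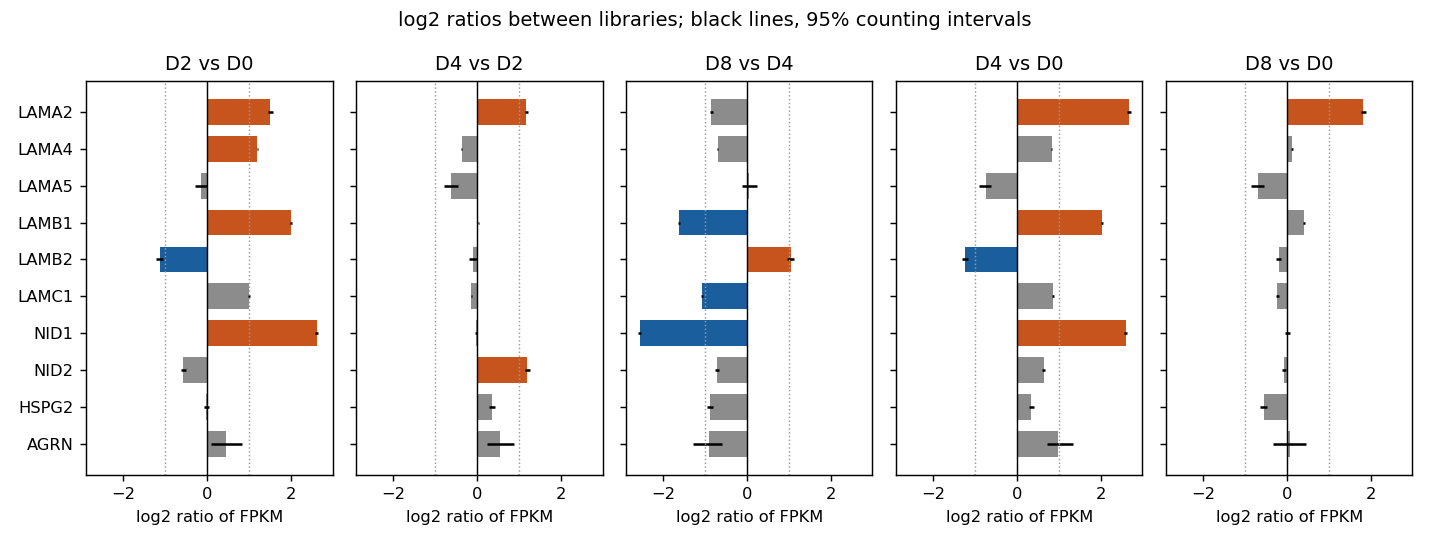
The log2 ratio of FPKM for each of the 10 genes in the 5 comparisons, with 95% counting intervals as black lines and dotted lines at a ratio of 2 in each direction. Orange bars were called higher, blue bars called lower, and grey bars were not called, with LAMA5 and AGRN grey throughout because they were not reliably expressed. NID1 has the longest bars between D2 and D0 and between D8 and D4, in opposite directions, and LAMA2 has the only coloured bar between D8 and D0.

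LAMB1 and NID1 were low, and LAMB2 high, in the libraries in which contractile genes were high. The summed FPKM of 7 smooth muscle and pericyte markers was 5775 (D0), 628 (D2), 508 (D4) and 4779 (D8). Of the 7, 4 were reliably expressed. Of those, 3 were called lower between D2 and D0 (10.1% of all reliably expressed mRNAs were) and higher between D8 and D4 (4.43% were). They were led by the smooth muscle actin ACTA2 with FPKM of 2907, 324, 225 and 2762. CSPG4, a pericyte marker, was above 1 at D0 (3.85) and D8 (2.72) and below 1 at D2 and D4, and NOTCH3, another, stayed between 1.10 and 1.66. MYH11, a defining marker of smooth muscle, and RGS5, a pericyte marker, were below 1 in each library. Of the 7 preadipocyte and fibroblast markers, 2 were called higher (6.67% of all reliably expressed mRNAs were) and 1 lower (10.1% were) between D2 and D0. Between D8 and D4, 1 of these markers was called higher (4.43% of mRNAs were) and 3 lower (10.1% were). The summed FPKM of the 7 was 3591 (D0), 1871 (D2), 1742 (D4) and 2570 (D8). PDGFRA, a receptor of preadipocytes, had FPKM of 75.8, 189, 149 and 60.8, and LUM, a matrix proteoglycan, had 32.6, 128, 186 and 77.0, both higher at D2 and D4, whereas the intermediate filament gene VIM had 2952, 885, 766 and 1898 and was lower there. The part of any of these cells or genes in the values of LAMB1, NID1 and LAMB2 was not tested.

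FPKM is per length, so chains can be set beside each other within a library. Among all 5 alpha chains, LAMA4 made up 92.8% of the summed FPKM (D0), 92.9% (D2), 82.8% (D4) and 82.9% (D8), with counting standard errors of at most 0.155 percentage points. LAMA2 filled most of the difference, with 4.78% (D0), 5.91% (D2), 15.3% (D4) and 13.8% (D8). The FPKM of LAMA4 was 19.4 times that of LAMA2 at D0 and 5.42 times at D4. Among the beta chains, LAMB1 made up 86.7% (D0), 97.9% (D2), 97.7% (D4) and 90.2% (D8). The ratio of LAMB1 to LAMB2 was 6.68 (D0), 58.6 (D2), 63.9 (D4) and 10.1 (D8), a range to which both genes contributed in opposite directions. Set against the gamma chain LAMC1, the FPKM of LAMB1 was 1.66 times that of LAMC1 at D0, 3.34 times at D2, 3.74 times at D4 and 2.56 times at D8, while LAMA4 ranged between 2.14 and 2.77 times. These are shares of mRNA, and the trimers were not measured.

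**Figure D3:**
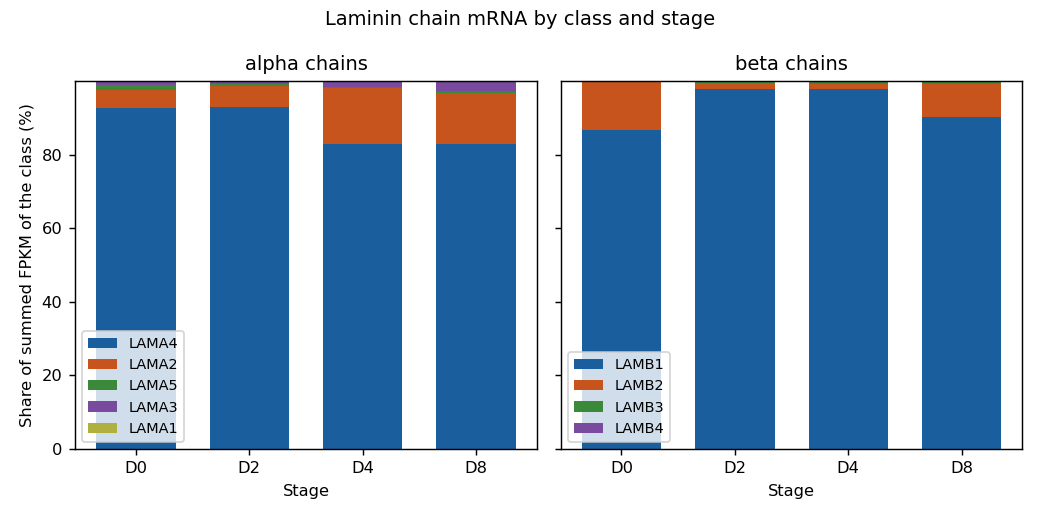
Stacked bars of each chain's share of the summed FPKM (%) of its class, alpha (left) and beta (right), at D0, D2, D4 and D8. LAMA4 and LAMB1 fill most of every bar, LAMA2 takes more of the alpha bar at D4 and D8, and LAMB2 takes more of the beta bar at D0 and D8.

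Other laminin chains described here were low. LAMA3, an alpha chain of epithelial laminin, was reliably expressed and had FPKM of 1.002 (D0), 1.46 (D2), 2.71 (D4) and 2.96 (D8). It was lowest at D0, and it was called higher at D4 (2.68-fold) and at D8 (2.94-fold) than at D0. The epithelial markers KRT5, with FPKM of 44.4 (D0), 107 (D2), 180 (D4) and 275 (D8), and KRT8, with 4.46 at D0 and 25.1 at D8, were higher in the same libraries. These were the reliably expressed ones among the 5 epithelial markers listed, whose summed FPKM was 49.6 (D0), 117 (D2), 197 (D4) and 302 (D8). EPCAM, KRT18 and CDH1, also epithelial, were below 1 in each library. The part of these markers in the LAMA3 values was not tested. LAMB3 (FPKM 0.239 to 1.38), LAMB4 (0 to 0.599, listed at 0 at D0), LAMA1 (0.00773 to 0.103) and LAMC3 (0.00219 to 0.0777) were not reliably expressed. LAMB4 lies within 50 kb of LAMB1 on the same strand, and it had at most 0.221% of the summed FPKM of the beta chains.

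Nidogens join laminin to collagen IV, and COL4A1 and COL4A2, its most abundant chains here, were high in the same libraries as LAMB1 and NID1. COL4A1 had FPKM of 68.8 (D0), 332 (D2), 373 (D4) and 102 (D8), and COL4A2, its partner in the trimer, had 25.6, 96.9, 140 and 45.4. COL15A1, a collagen at the outer side of basement membranes, had 19.4, 15.3, 58.8 and 28.4, highest at D4 and lowest at D2, as NID2 was. COL4A5, another collagen IV chain, had another course, with FPKM of 1.24, 1.93, 2.003 and 2.70, and was highest at D8. Of 7 basement membrane collagens listed, 5 were reliably expressed. Of these, 2 were called higher between D2 and D0, 3 between D4 and D0, and 3 were called lower between D8 and D4. Of all reliably expressed mRNAs, 6.67%, 10.4% and 10.1% were so called, in that order. The median log2 ratio of D4 to D0 over the 5 collagens was 1.60, above the 0.83 of the 8 laminin and linker genes. Of 20 other proteins of the sheet, 9 were reliably expressed. Beside 10.4% of all mRNAs called higher and 8.81% called lower, 2 of the 9 were higher and 1 was lower at D4 than at D0. These were NTN1, a netrin (FPKM 1.72 at D0 and 5.58 at D4), PXDN, the peroxidase that crosslinks collagen IV (6.30 and 13.0), and TINAGL1, a matricellular protein that binds integrins (27.4 and 2.85).

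Genes of laminin receptors, listed together with the associated protein CD151, were called in both directions. Of 12 listed, 6 were reliably expressed. Between D4 and D0, 2 were called higher and 2 lower, beside 10.4% and 8.81% of all reliably expressed mRNAs. ITGA7, a laminin-binding integrin alpha subunit known from muscle, had FPKM of 2.23 (D0), 10.6 (D2), 48.9 (D4) and 21.7 (D8). Like LAMA2 it was highest at D4 and remained above its D0 level at D8. ITGB1, the beta subunit that pairs with it, had 319 (D0), 126 (D2), 104 (D4) and 207 (D8), and CD151, a tetraspanin that associates with laminin-binding integrins, had 225, 68.5, 41.3 and 116. Of 13 genes of the dystrophin complex, which ties dystroglycan to the cytoskeleton, 9 were reliably expressed. Between D4 and D0 the syntrophin SNTB1 was called higher (FPKM 0.238 and 5.33), beside 10.4% of all reliably expressed mRNAs. In that comparison 3 of the 9 were called lower, among them SSPN (6.28 and 2.77) and SGCE (50.9 and 23.8), beside 8.81% of mRNAs.

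Dystroglycan binds laminin through a sugar chain, and perlecan and agrin carry heparan sulfate. Of 14 listed genes of dystroglycan glycosylation, 11 were reliably expressed. Beside 6.67% of all reliably expressed mRNAs, 2 of the 11 were called higher between D2 and D0, POMGNT2 (FPKM 6.38 and 14.7) and B4GAT1 (9.22 and 19.5). Both were among the 3 of the 11 called lower between D8 and D4, beside 10.1% of mRNAs. Of 17 listed genes of heparan sulfate synthesis and editing, 14 were reliably expressed. Of these, 5 were called higher at D4 than at D0, among them EXTL2 (1.42 and 3.68), EXTL3 (1.89 and 4.44) and EXT2 (7.38 and 15.6). None was called lower, beside 10.4% of all reliably expressed mRNAs called higher and 8.81% called lower. SULF1 and SULF2, sulfatases that edit finished chains, were the 2 of the 14 with a ratio below 1 (log2 ratios -0.89 and -0.20). The median log2 ratio of the 14, with SULF1 and SULF2 included, was 0.30 at D4 against D0. It was 0.06 for all reliably expressed mRNAs, and the ratio of HSPG2, a carrier of such chains, was 0.33.

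Of 15 proteases and inhibitors that act on basement membranes, 13 were reliably expressed. Of these, 3 were called higher between D2 and D0 and 5 between D4 and D0, while 4 were called lower between D8 and D4. Of all reliably expressed mRNAs, 6.67%, 10.4% and 10.1% were so called, in that order. ADAMTS4, a matrix protease, had FPKM of 2.32 (D0), 31.5 (D2), 32.8 (D4) and 3.06 (D8), the plateau seen for NID1. MMP2, which cleaves collagen IV, had 99.3, 371, 481 and 96.8. TIMP1, an inhibitor of matrix metalloproteinases, had 179, 111, 97.2 and 49.4 and was lowest at D8.

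**Figure D4:**
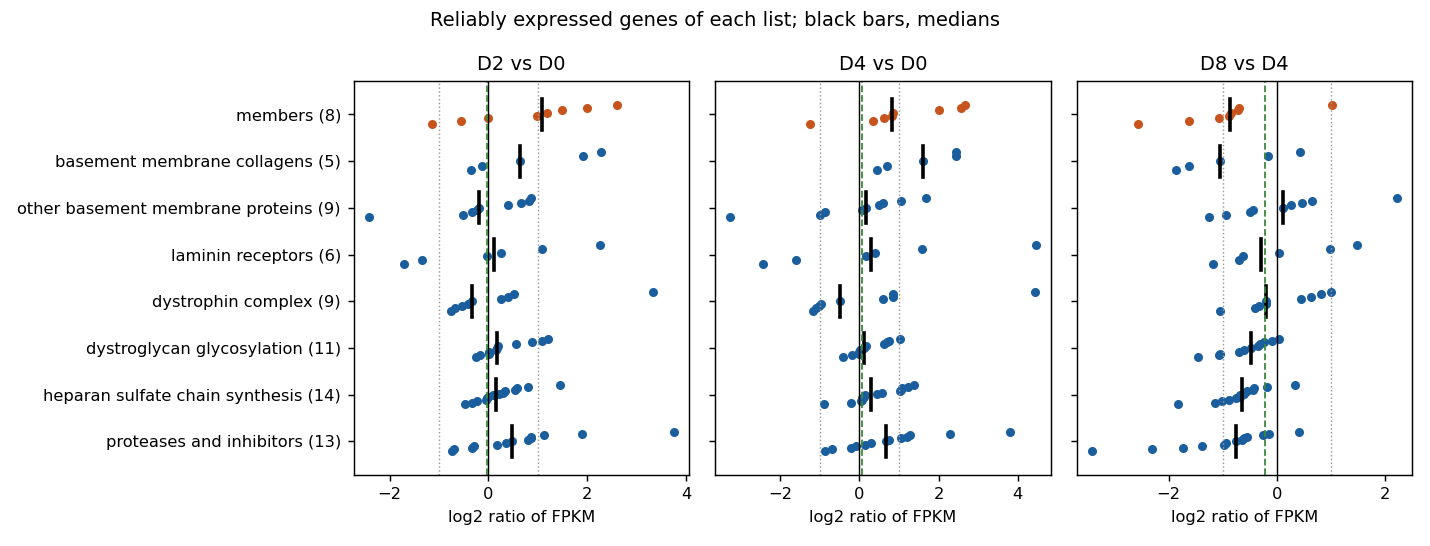
The log2 ratio of FPKM for every reliably expressed gene (points) of the laminin and linker genes (orange, labelled members) and of 7 other lists (blue), for D2 against D0, D4 against D0 and D8 against D4, with list medians as black bars and the number of genes in brackets. The green dashed line is the median of all 9191 reliably expressed mRNAs, and dotted lines mark a ratio of 2. The laminin and linker genes and the basement membrane collagens lie mostly to the right of the green line at D4 against D0 and mostly to the left of it at D8 against D4. The heparan sulfate chain synthesis genes and the proteases and inhibitors do so too.

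Circular RNAs gave a second readout of the same loci. These arise when a downstream splice donor joins an upstream acceptor, and they were deposited as SRPBM, the reads across that junction scaled by all mapped reads. A single junction read was worth between 5.94 and 8.40 SRPBM. In 7 of the 10 genes 29 circRNAs were listed on the same strand, and LAMA5, LAMB2 and AGRN had none. Of the 29, 19 had reads in 1 library and 3 in all 4 libraries. Together they had 181 junction reads (D0), 255 (D2), 353 (D4) and 169 (D8). The smallest value above 0 in the files was worth 2 junction reads, so a value of 0 can stand for a single read.

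One LAMB1 circle, ssc_circ_0004451 (chr9:107710908-107712562, a span of 1655 bases within the gene), held most of these reads. Its SRPBM was 982 (D0), 1206 (D2), 1312 (D4) and 773 (D8), from 153, 166, 221 and 92 junction reads. It was highest at D4 and lowest at D8, and it ranked between place 12 and place 28 among the 8623 circRNAs listed. Its log2 ratio to D0 was 0.30 (-0.03 to 0.62) at D2, 0.42 (0.11 to 0.73) at D4 and -0.35 (-0.73 to 0.04) at D8, and the D2 and D4 intervals lay below the LAMB1 mRNA ratios of 1.99 and 2.02. Per 1000 reads of LAMB1 mRNA, the circle had 4.56 junction reads (D0), 1.70 (D2), 1.65 (D4) and 2.90 (D8). The log2 ratios of the circle to D0 were thus smaller than those of the mRNA at D2 and D4.

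NID1 had 6 circles, with 0 junction reads (D0), 54 (D2), 75 (D4) and 20 (D8). The largest, ssc_circ_0007054 (chr14:55301204-55308756), had SRPBM of 0, 131, 178 and 75.6 in that order, and ssc_circ_0007053 (chr14:55274140-55277629) had 0, 131, 65.3 and 50.4. No circle of NID1 was listed above 0 at D0, whereas 3 were at D8, although the mRNA levels of D0 and D8 were equal within counting error. NID1 mRNA had 6010 reads at D0 and 4358 at D8. For the other genes the junction reads were few, with at most 22 per gene and library. LAMA4 had 2 at D0, from 1 circle, and 22 at D8, from 4 other circles, while its mRNA was highest at D2. LAMC1 had 6 junction reads in the D2 library only.

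**Figure D5:**
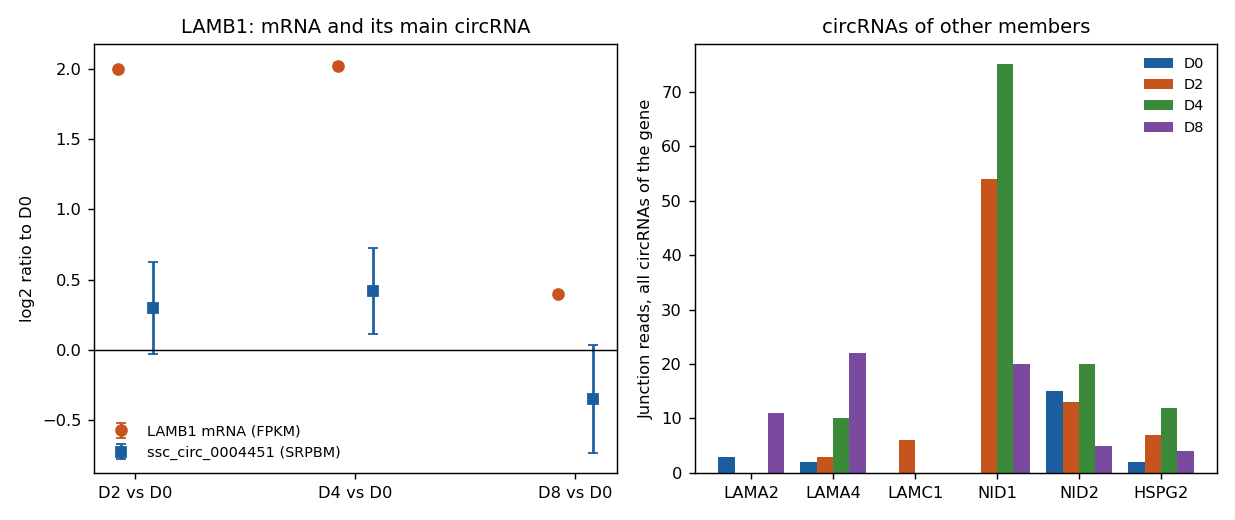
Left, log2 ratio to D0 of LAMB1 mRNA (FPKM, orange circles) and of its main circRNA (SRPBM, blue squares), with 95% counting intervals, those of the mRNA being smaller than the symbols. Right, junction reads summed over the circRNAs of each other gene with any, by library, where NID1 has no bar at D0 and its tallest bar, 75 reads, at D4.

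Transcripts beside the genes were looked at because overlapping RNA can enter a gene's count where strand is not used, and the strand setting of the counting is not given in the sources used here. The lncRNA LOC100623096, antisense within LAMB1, had FPKM of 0.204 (D0), 1.91 (D2), 2.31 (D4) and 0.557 (D8), with at most 302 reads. LAMB1 was 115 to 321 times as abundant per length. The values of the lncRNA itself are uncertain for the same reason. The intergenic lncRNA MSTRG.123615 begins 212 bases from NID1 on the same strand, with FPKM of 0.184, 1.26, 0.879 and 0.439 from 7 to 35 reads.

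For the gene with the highest D0 level in each role, the mRNAs with the most similar course were sought as those whose 3 log2 ratios to D0 differed least from its own, by the largest of the 3 differences. Over the 4 libraries the nearest were TTC14, CA12 and SLC48A1 for LAMA4 (largest difference 0.08 to 0.13), and ACAD11, GSTK1 and PPIF for LAMB1 (0.22 to 0.25). They were RECK, TWIST2 and OTUD3 for LAMC1 (at most 0.08), FANCI, HMGB2 and ARHGAP42 for NID2 (at most 0.11) and UBAP2L, H6PD and NUP98 for HSPG2 (at most 0.06). A course like that of HSPG2 was common, with 358 mRNAs within 0.25, whereas LAMB1 had 3. NID1, added after its values had been seen, had 1, the betaglycan gene TGFBR3, with FPKM of 3.37 (D0), 23.3 (D2), 22.7 (D4) and 3.27 (D8). Among the 10 genes themselves, LAMA4 and LAMC1 were the closest pair (0.35) and LAMA2 and LAMB2 the farthest apart (3.89).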

How the data were processed

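Per the study's methods, the authors aligned trimmed reads with HISAT2 2.0.5 (version per the labels) to the Sscrofa11.1 pig assembly. Their deposited FPKM values cover 16192 mRNAs, besides lncRNAs. CIRI, run on BWA-MEM alignments, gave 8623 circRNAs with a minimum of 2 junction reads, and these were deposited as SRPBM, a junction read signal scaled by mapped reads. Both units stand in the same column. The counting tool is not given in the sources used here. The 10 genes and the other lists were chosen with earlier results of these data known. Library totals (54128151 to 75387428 fragments, called reads here) were recovered from short single-exon genes, where 1 read has a fixed FPKM. Read numbers were recovered as the shortest gene length giving whole reads in all 4 libraries within 0.01 (158 of 158 list genes above 0), and 95% intervals are exact binomial (Clopper-Pearson) on those reads. The recovery of read numbers and the intervals were tested on simulated data. The simulation took the library totals as given, so their recovery was not tested. Ratios used log2(FPKM + 0.01), and calls needed a ratio of at least 2 and FPKM of at least 1 in at least 3 libraries. These 2 limits are those of the study's methods. The authors also set a limit on the false discovery rate from DEGseq. That test compares 2 libraries and not 2 stages, and it was not used here. No test of stages was possible. Genes named outside the 10 were the other laminin chains and, from each list, at most the 3 reliably expressed genes with the largest log2 ratio to D0, and the 3 nearest courses. Some genes that this rule names are not reported here. Additional markers were named as checks. Positions matched RefSeq for 10 of 10 genes, and no sequences were used. Alternatives were other pseudocounts, filters, ratios and scalings. Python 3.11.15, pandas 2.3.3, numpy 2.4.6, scipy 1.17.1 and matplotlib 3.10.9 were used.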

Additional observations from a re-analysis of the deposited data

How the results depend on the processing

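Each stage had 1 library, so no spread over animals or preparations could be measured, and read depth most limits the circRNAs, AGRN, the lncRNAs and the lowest laminin chains, LAMA1 and LAMC3. No paired analysis was possible because each stage has 1 library and the comparisons come from no test. No called gene changed direction under any alternative pseudocount, filter, ratio or scaling. Scaling moved all log2 ratios of a comparison together, by at most 0.21 (median-ratio scaling, D8 against D4). LAMC1 was called higher between D2 and D0 under each of the 4 scalings, which made 6 called genes, and was no longer called between D8 and D4 under median-ratio and 75th percentile scaling. LAMB2 was not called between D2 and D0 or between D8 and D4 with a pseudocount of 1, nor between D8 and D4 with equal protein-coding sums. With a ratio of at least 1.5, 8 genes were called between D8 and D4 (7 lower) and 7 between D4 and D0 (6 higher). The median log2 ratio of the genes between D2 and D0 was 0.71 without a filter, 1.12 with median-ratio scaling, 1.20 with equal protein-coding sums, 1.18 with equal 75th percentiles and 1.17 without signal recognition particle RNA, an alternative chosen after seeing the data. In the same order of the 4 scalings it was -0.0939, -0.0722, -0.0832 and -0.0806 from D2 to D4. For D8 against D4 it was -0.76 with a pseudocount of 1, -0.66 with median-ratio scaling, -0.73 with equal 75th percentiles and -0.80 without signal recognition particle RNA. Between D4 and D0 it was 0.78 with median-ratio scaling and 0.87 with equal protein-coding sums. Between D8 and D0 it was above 0, at 0.12 with median-ratio scaling and with equal 75th percentiles and 0.0335 without signal recognition particle RNA. Signs that changed were those of HSPG2 (D2 against D0), LAMB1 (D4 against D2) and NID2 (D8 against D0), the largest of which was -0.0839 at first. Without the chains outside the 10 genes, LAMA4 was 93.9%, 93.5%, 84.1% and 85.2% of the alpha chains at D0, D2, D4 and D8 (with them 92.8%, 92.9%, 82.8% and 82.9%), and LAMB1 was 98.3%, 98.5% and 91.0% of the beta chains at D2, D4 and D8 (with them 97.9%, 97.7% and 90.2%).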
